A study of Danio rerio with 36 samples.

Results

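Megalin, the product of lrp2, is a large endocytic receptor, and 6 genes whose products work with it were followed through 36 libraries of zebrafish eye RNA. The genes were chosen by identifier from the 31916 gene identifiers in the deposited tables, by a rule that uses no measured value. They are dab2 (ENSDARG00000031761), DAB2 (ENSDARG00000053091), ldlrap1a (ENSDARG00000004311), LRPAP1 (ENSDARG00000033604), ANKRA2 (ENSDARG00000035399) and CLU (ENSDARG00000010434). Where the table of symbols uses capitals it gives the human orthologue's name, so dab2 and DAB2 are separate zebrafish genes, and whether reads were shared between them was not tested. All 6 passed the filter on low counts in every comparison.

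Megalin sits on the apical face of absorptive epithelia, where it takes up a broad set of extracellular proteins through clathrin-coated pits. In mammals its tail is bound by disabled-2, the product of DAB2, which links receptors to clathrin and AP2, and by the ankyrin repeat protein ANKRA2. The receptor-associated protein encoded by LRPAP1 is a chaperone of the endoplasmic reticulum that keeps newly made receptors of the LDL receptor family from binding ligands too early, and clusterin, the product of CLU, is a secreted chaperone and one of the ligands of megalin.

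The libraries form 12 groups of 3. Whole eyes, retinal pigment epithelium (RPE, the pigmented layer behind the photoreceptors), retina, and sclera with choroid came from wild-type fish, titled ZDR in the labels, and from lrp2-/- mutants at 1 month after fertilization. Larval whole eyes at 5 days came from fish with the transgene hsp70l:eGFP-bmp4, from fish with hsp70l:shha-eGFP, and from wild-type controls of each line, and the transgenes stand behind a heat-shock promoter that is not restricted to the eye. The labels do not describe the lrp2 allele, any heat shock or pooling of fish, and nothing in them states that libraries of 1 group came from separate fish, so p-values measure a spread between libraries that may be technical. In bulk tissue, fewer cells of a type and less RNA per cell cannot be told apart.

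Total expected counts per library lay between 17543343 and 26155082 at 1 month and between 22003092 and 26708466 in larvae. LRP2 itself was at 20.1 to 21.1 TPM (the length-scaled transcript level) in wild-type retina and at 14.2 to 16.2 in mutant retina, a log2 fold change of -0.46 (edgeR quasi-likelihood test, SE 0.08, adjusted p = 0.0046), while the groups overlapped in the other tissues, so the transcript level alone does not mark the genotype. BMP4 was at 3.46 to 3.84 TPM in the bmp4 controls and at 118.8 to 147.4 in the transgenic larvae. Of the 2 identifiers named SHH, ENSDARG00000068567 was at 4.19 to 11.3 TPM in the shh controls and at 14.4, 31.9 and 94.6 TPM in the transgenic libraries. The shh library numbered 13 stood apart, with Pearson correlations of log2(TPM + 1) of 0.912 and 0.899 to its group, whose other libraries had 0.985, and the mutant RPE library numbered 21 had 0.953 and 0.961 against 0.976. RPE marker genes summed to 12127 to 21358 TPM in wild-type RPE and to at most 198.2 in wild-type retina, and the RPE libraries also held 1201 to 1860 TPM of 8 endothelial genes, more than the 176.4 to 336.5 of the sclera with choroid. The sclera with choroid held 75660 to 91796 TPM of 12 corneal and surface epithelium genes in wild type and 71517 to 79658 in mutants. Wild-type RPE held 9419 to 10356 TPM of them and wild-type retina 147.6 to 421.5. The part of this epithelium in the member levels was not tested. Lens genes summed to 13198 TPM in the second wild-type retina library and to about 100 in the others (92.4 and 104.9).

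Across wild-type tissues the 3 adaptors were not all highest in the same tissue. The level of dab2 was highest in retina, whereas the levels of DAB2 and ldlrap1a were highest in RPE. LRPAP1 varied least, ANKRA2 was highest in retina, and CLU was the most abundant member in every tissue. These levels are in TPM, which is scaled by transcript length, and the tests below are on counts in a fit of the 9 dissected wild-type libraries. All 6 members were called (adjusted p under 0.05) between RPE and retina, where 69.1% of all genes tested were called, 5 between sclera with choroid and retina (73.5% of all genes), and 6, all lower in sclera with choroid, between it and RPE (46.2%), so a call by itself was common in each of these comparisons.

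**Figure D1:**
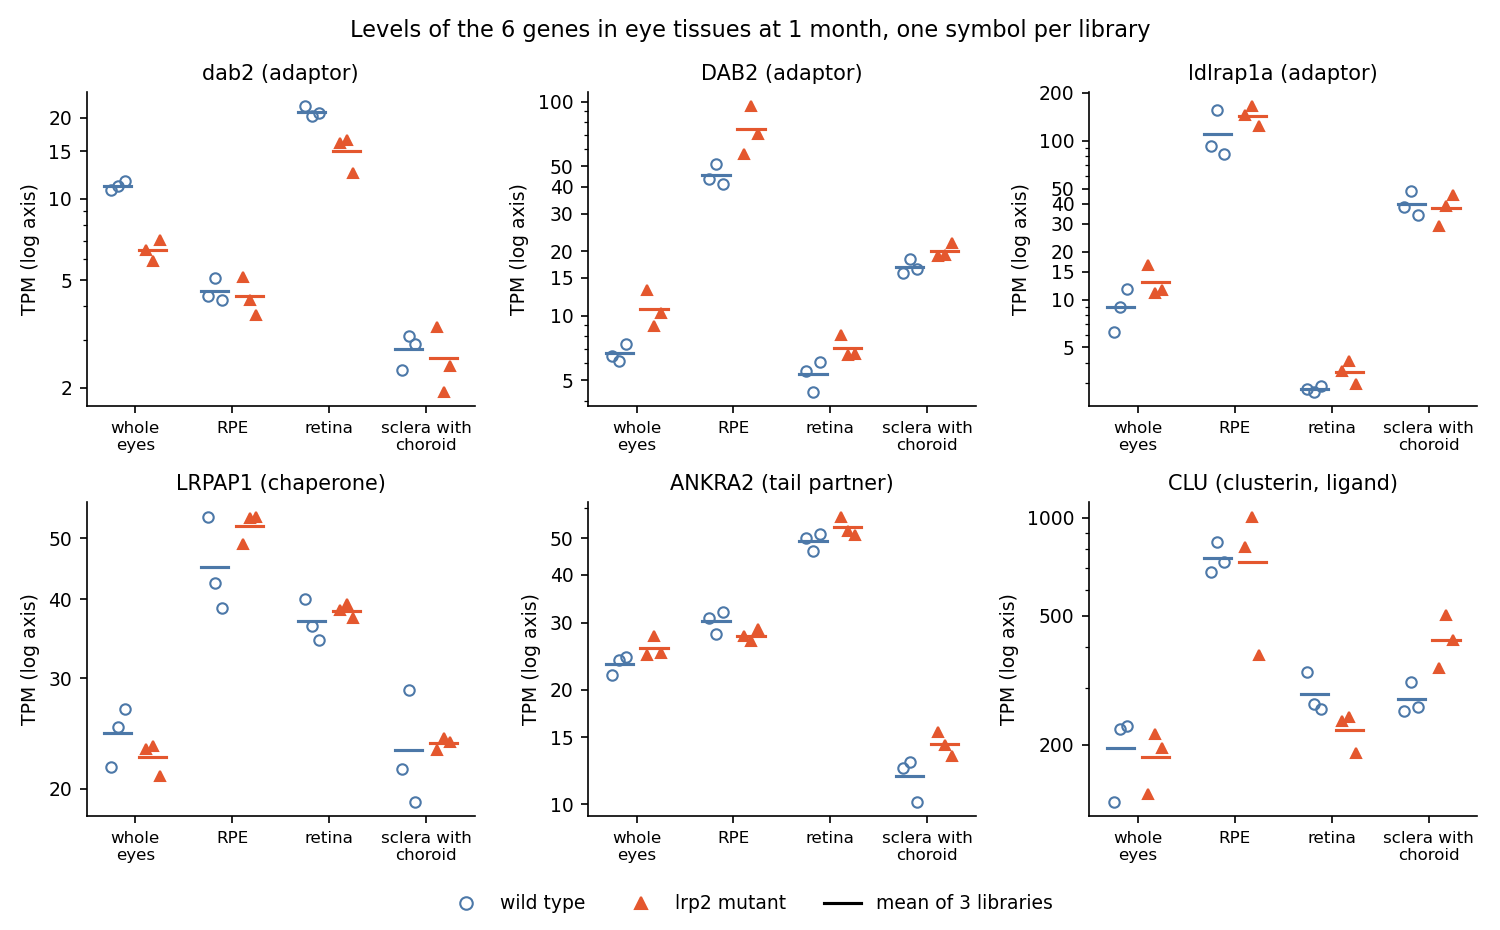
TPM on log axes of the 6 genes in each 1-month library, with wild type as open circles, lrp2 mutants as filled triangles and the mean of 3 libraries as bars. In wild type, dab2 was highest in retina (20.3 to 22.0 TPM), and DAB2 (41.0 to 51.1), ldlrap1a (82.9 to 156.9) and CLU (682 to 845) were highest in RPE.

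For dab2, the wild-type retina libraries stood at 22.0, 20.3 and 20.9 TPM, whole eyes at 10.7, 11.2 and 11.6, RPE at 4.35, 5.10 and 4.21, and sclera with choroid at 2.32, 3.11 and 2.89. No neighbouring groups in this order overlapped. Between RPE and retina, 43.2% of all genes were lower in RPE without overlap and 32.3% higher. For the other pairs of tissues no such share is given, here or for the members below. Separation between tissues is therefore not read as particular to a member. In counts, dab2 was 3.55-fold lower in RPE than in retina (log2 -1.83, SE 0.13, edgeR adjusted p = 2.2e-06).

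For DAB2 retina came last instead of first, with RPE of wild-type fish at 43.3, 51.1 and 41.0 TPM, sclera with choroid at 15.9, 18.4 and 16.5, whole eyes at 6.48, 6.16 and 7.36, and retina at 5.52, 4.41 and 6.06. Again no neighbouring groups overlapped. The excess of RPE over retina was 12.6-fold in counts (log2 3.65, SE 0.10, edgeR adjusted p = 5.0e-08).

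Still steeper was ldlrap1a, at 92.4, 156.9 and 82.9 TPM in wild-type RPE against 2.74, 2.63 and 2.86 in retina. Its levels in sclera with choroid (38.5, 48.2 and 34.1 TPM) and in whole eyes (6.29, 8.95 and 11.7) lay between these without overlap. The counts gave a 47.9-fold difference of RPE over retina (log2 5.58, SE 0.25, edgeR adjusted p = 1.7e-07). The endothelial sum ran in the same order across the dissected tissues, with 41.7 to 42.7 TPM in wild-type retina, 176.4 to 336.5 in sclera with choroid and 1201 to 1860 in RPE. So did the sums of iridophore genes (29.0 to 32.8, 140.2 to 180.3 and 1101 to 1568) and red blood cell genes (139.5 to 172.6, 222.8 to 718.0 and 15143 to 19014). Mean sums of macrophage and microglia genes (109.4, 195.4 and 246.3 TPM) ran in this order too, but sclera with choroid overlapped RPE. Those of melanosome genes (107.7, 115.1 and 5947 TPM) did as well, with overlap of retina and sclera with choroid. The remaining lists ran in other orders. The part of any list in the adaptor levels was not tested.

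The chaperone gene LRPAP1 spanned 38.7 to 54.1 TPM in RPE of wild-type fish, 34.4 to 39.99 in retina, 21.6 to 26.8 in whole eyes and 19.1 to 28.7 in sclera with choroid. RPE overlapped retina, and whole eyes overlapped sclera with choroid. The higher RPE count (log2 0.55, SE 0.16, edgeR adjusted p = 0.0134) was no longer called on TPM (0.27) or without the first RPE or the third retina library. ANKRA2 went from 46.2 to 51.3 TPM in retina through 27.9 to 31.9 in RPE and 21.8 to 24.3 in whole eyes to 10.1 to 12.9 in sclera with choroid, and none of these ranges overlapped.

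For CLU, wild-type RPE libraries held 682, 845 and 732 TPM, retina 334, 267 and 258, sclera with choroid 254, 313 and 262, and whole eyes 133, 224 and 229. RPE stood above the other tissues, 3.31-fold over retina in counts (log2 1.73, SE 0.13, edgeR adjusted p = 2.6e-06), and retina and sclera with choroid overlapped. Between those, the sign depended on the scale, since CLU was higher in sclera with choroid by log2 0.64 in counts (adjusted p = 0.0014) and at -0.05 on the TPM scale. On that scale the median of all genes itself lay at -0.43 for this comparison.

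Loss of lrp2 went with opposite changes of the disabled-2 copies in retina, where dab2 fell 1.43-fold and DAB2 rose 1.56-fold. In whole eyes dab2 fell 1.86-fold, and DAB2 was 1.51-fold higher without passing the test. No member was called in RPE or in sclera with choroid. The calls thus numbered 2 of 6 in retina, where 19.5% of all genes tested were called (8.13% higher, 11.3% lower), 1 of 6 in whole eyes (0.934% of all genes, 0.56% lower), 0 of 6 in RPE (1.37%) and 0 of 6 in sclera with choroid (6.64%). At an unadjusted p under 0.05 there was 1 member in each of these last tissues, DAB2 in RPE and CLU in sclera with choroid, and DESeq2 called 1 and 0.

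**Figure D2:**
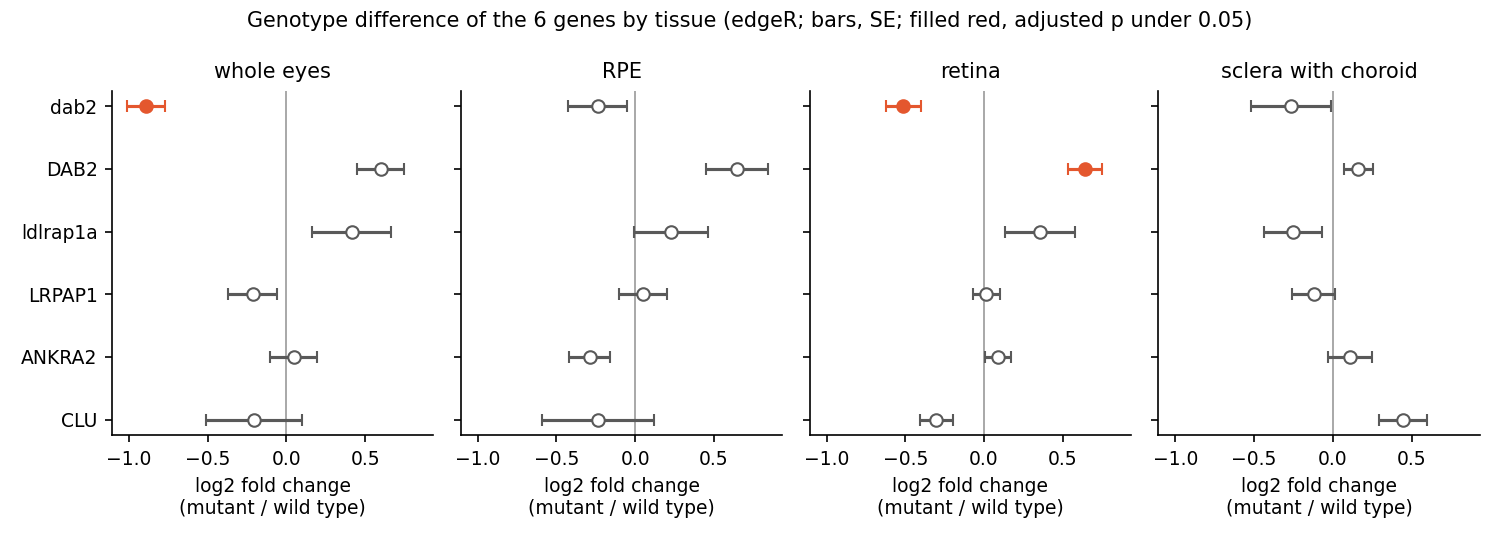
Log2 fold change of lrp2 mutants over wild type for each gene and tissue by edgeR on counts, with bars of 1 SE over 3 against 3 libraries and red symbols at an adjusted p under 0.05. The called changes are dab2 in whole eyes (-0.89) and dab2 (-0.51) and DAB2 (0.64) in retina.

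In retina, dab2 fell from 22.0, 20.3 and 20.9 TPM in wild type to 16.1, 16.5 and 12.5 in the mutants. Every mutant library lay below every wild-type library, as for 15.9% of all genes, and the change was log2 -0.51 (SE 0.11, edgeR adjusted p = 0.0115). The call held without any single library, with adjusted p between 0.0133 and 0.047, and on the TPM scale. In whole eyes, dab2 went from 10.7, 11.2 and 11.6 TPM to 6.45, 5.87 and 7.01, again with no overlap (6.88% of all genes), a change of log2 -0.89 (SE 0.12, edgeR adjusted p = 0.0278). That call was lost in 5 of 6 fits with 1 library left out (adjusted p 0.0342 to 0.164) and on TPM (-0.71, adjusted p = 0.0543), although the size stayed between -0.94 and -0.85 without single libraries.

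The fall of dab2 was not called in the tissues where it is scarce. Wild-type and mutant RPE held 4.21 to 5.10 and 3.70 to 5.15 TPM (log2 -0.24, SE 0.19, adjusted p = 0.581), and sclera with choroid 2.32 to 3.11 and 1.93 to 3.35 (log2 -0.27, SE 0.25, adjusted p = 0.549), so both pairs of groups overlapped. The retinal Müller glia genes, of which 2 of 3 fell by the test in retina, moved beside dab2, with sums going from 1155 to 1190 TPM in wild-type retina to 863 to 966 in mutant retina and from 525 to 532 to 404 to 486 in whole eyes. Rod genes also had lower sums in mutant retina (42532 to 48667 TPM in wild type, 36902 to 41394 in mutants, 8 of 12 lower by the test), as had inner neuron genes (1580 to 2187 and 1278 to 1512, 1 of 7 lower). Cone sums overlapped in retina, at 54474 to 66785 TPM in wild type and 56382 to 65444 in mutants. The sums of the 8 melanosome genes were 132.4 to 237.7 TPM in wild-type and 355.8 to 442.5 in mutant whole eyes. The part of any of these in the fall of dab2 was not tested.

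The mutant libraries held more DAB2 than every wild-type library in all 4 tissues when levels are read in TPM. A rise without overlap was seen for 14.2% of all genes in whole eyes, 20.2% in RPE, 20.6% in retina and 26.5% in sclera with choroid. The share of genes that rose so in all 4 was not counted. DAB2 counts of sclera with choroid, not scaled for total counts, overlapped. Wild-type libraries spanned 1048 to 1193, and mutant libraries held 977, 1368 and 1601. The mutant library with 977 had the lowest total count of the 1-month set (17543343). Its overlap is therefore not read as evidence on DAB2. For sclera with choroid the median of all genes itself lay at log2 0.14 on the TPM scale. In retina, DAB2 rose from 5.52, 4.41 and 6.06 TPM to 8.14, 6.52 and 6.60. The counts behind these levels were 231 to 258 for wild-type and 377 to 428 for mutant libraries, without overlap, which gave a log2 change of 0.64 (SE 0.11, edgeR adjusted p = 0.00366). The call held without any single library (adjusted p 0.00677 to 0.0198) but not on TPM, where the change was 0.36 (adjusted p = 0.164).

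In RPE, where DAB2 is most abundant, the wild-type libraries held 43.3, 51.1 and 41.0 TPM and the mutants 56.9, 95.1 and 70.8. The change was as large as in retina but came with a wider spread (log2 0.64, SE 0.20, edgeR adjusted p = 0.176), and it was called by DESeq2 (adjusted p = 0.0365, with 3.78% of all genes higher) and in a fit of all 24 libraries (adjusted p = 0.00791, with 3.89% higher). In whole eyes, DAB2 went from 6.48, 6.16 and 7.36 to 13.1, 8.90 and 10.3 TPM without overlap (log2 0.60, SE 0.15, edgeR adjusted p = 0.123), and it passed in the same alternatives, with adjusted p = 0.0307 and 0.0382 (2.21% and 0.914% of all genes higher). In sclera with choroid the levels were 15.9, 18.4 and 16.5 against 19.1, 19.2 and 21.7 TPM (log2 0.16, SE 0.09, adjusted p = 0.332).

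Summed over 15 genes, macrophage and microglia markers were also higher in mutants in 3 of these tissues, at 226.5 to 256.4 TPM in wild-type and 376 to 425.3 in mutant RPE, 79.7 to 99.6 and 103.2 to 121.3 in whole eyes, and 150.2 to 259.4 and 335.1 to 596.1 in sclera with choroid. In retina, where DAB2 was called, they overlapped (96.6 to 121.2 against 92.9 to 110.8 TPM), while the endothelial sum went from 41.7 to 42.7 up to 53.9 to 61.8, with 2 of 8 genes higher and 1 lower by the test. Gene by gene, 0 of 15 macrophage markers were called in RPE, 1 of 15 was higher in sclera with choroid, where their median log2 change was -0.47, and 1 of the 10 tested was higher in retina. In RPE other sums differed without overlap as well, being lower in mutants for RPE markers (7083 to 11090 TPM against the wild-type range given above) and Müller glia (366.7 to 435.6 in wild type, 144.8 to 292.9 in mutants) and higher for melanosome genes (5085 to 6466 and 6516 to 7854) and cartilage (65.3 to 68.9 and 90.6 to 191.1), with 0 genes of these lists called. Red blood cell sums were also lower in mutant RPE (15143 to 19014 TPM in wild type, 2502 to 4470 in mutants). Whole-eye sums without overlap were higher in mutants for RPE markers (322.6 to 590.7 TPM in wild type, 620.8 to 810.4 in mutants). Iridophore (89.8 to 100.5 and 127.5 to 149.0) and cartilage sums (47.7 to 57.1 and 69.1 to 127.0) were higher too. Melanosome genes were higher there and Müller glia genes lower, as given above. Red blood cell genes were lower (2124 to 3196 and 824.6 to 1808). In sclera with choroid, sums of melanosome genes (102.3 to 129.0 TPM in wild type, 149.0 to 324.9 in mutants) were also higher without overlap. So were those of iridophore genes (140.2 to 180.3 and 194.6 to 344.6) and lens genes (54.5 to 75.8 and 88.9 to 98.7). The part of these lists in the DAB2 levels was not tested.

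Read together as the share of DAB2 in the summed TPM of both copies, the balance differed by tissue and genotype. DAB2 made up 90.8% ± 0.12 (SD, n = 3) of it in RPE of wild-type fish, 85.9% ± 1.1 in their sclera with choroid, 37.3% ± 1.6 in whole eyes and 20.2% ± 2.3 in retina. In mutants the share was 62.2% ± 4.2 in whole eyes and 32.2% ± 3.4 in retina, above every wild-type library of the same tissue. It was 94.2% ± 2.2 in mutant RPE, also above every wild-type library there (91.7 to 95.8% against 90.7 to 90.9%), and, with overlap, 88.7% ± 3.1 in mutant sclera with choroid.

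**Figure D3:**
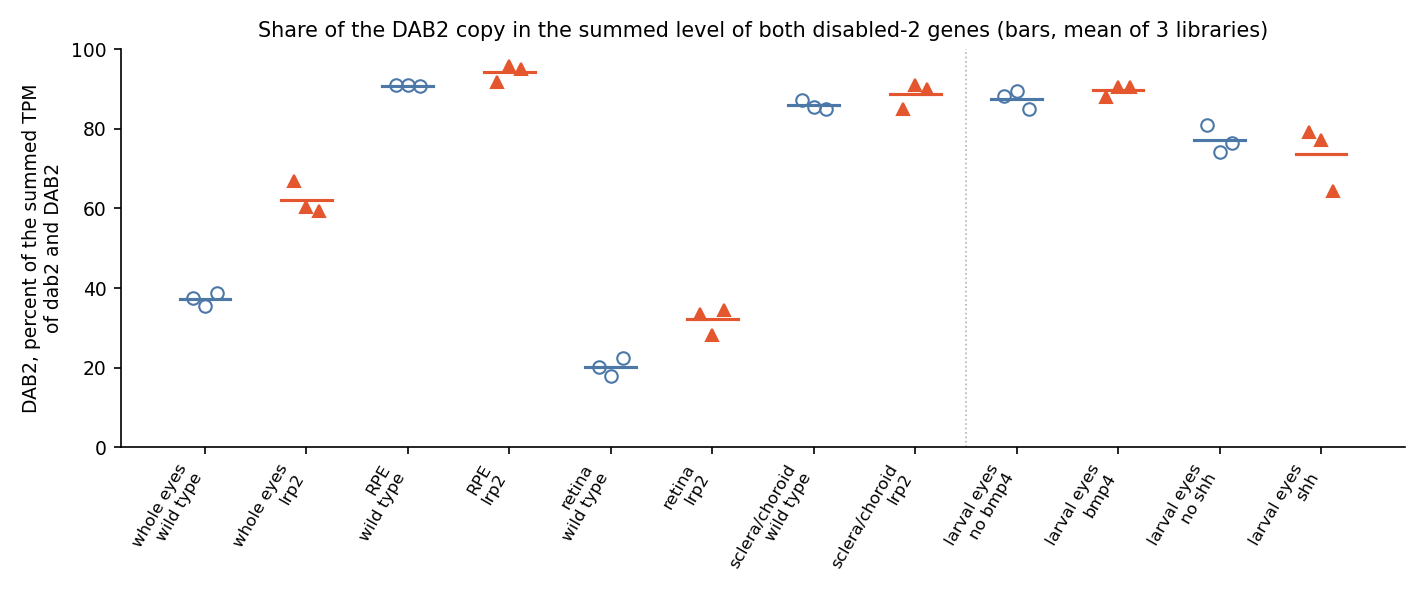
Percent of the summed TPM of dab2 and DAB2 that came from DAB2, one symbol per library and bars for the mean of 3, for 1-month tissues (left of the dotted line) and larval eyes. Wild-type whole eyes lie at 35.6 to 38.8% and mutant whole eyes at 59.4 to 67.0%.

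The third adaptor, ldlrap1a, was not called in any tissue of the mutants. Wild-type RPE libraries held 92.4, 156.9 and 82.9 TPM, and the mutant ones 144.8, 164.9 and 123.0 (log2 0.23, SE 0.24, edgeR adjusted p = 0.686). Retina went from 2.74, 2.63 and 2.86 to 3.54, 4.09 and 2.95 TPM, without overlap, as for 20.6% of all genes. Counts were few there, 38 to 47 per wild-type library and 45 to 72 per mutant library. These counts overlapped, but they are not scaled for total counts. The mutant library with 45 had the lowest total of its group (19412139). The change in retina was log2 0.36 (edgeR adjusted p = 0.294). Values were 0.41 in whole eyes (adjusted p = 0.542) and -0.25 in sclera with choroid (adjusted p = 0.431), where the groups overlapped.

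LRPAP1, the chaperone gene, was not called in any tissue of the mutants. Its log2 changes were -0.21 in whole eyes, 0.05 in RPE, 0.02 in retina and -0.12 in sclera with choroid, with edgeR adjusted p between 0.603 and 0.921. In retina, where the spread was smallest, an interval of 2 SE around the change ran from -0.15 to 0.18. For ANKRA2 the changes were 0.05, -0.29, 0.09 and 0.11 in the same order (adjusted p 0.334 to 0.932). On the TPM scale its mutant libraries lay just above wild type without overlap in whole eyes (24.6 to 27.7 against 21.8 to 24.3) and in sclera with choroid (13.4 to 15.5 against 10.1 to 12.9), as for 14.2% and 26.5% of all genes.

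None of the CLU changes in mutants passed the test. Their signs differed between tissues, but no difference between tissues was called, as given below. In retina the levels were 334, 267 and 258 TPM in wild type and 236, 243 and 188 in mutants, lower in every library (log2 -0.30, SE 0.10, edgeR adjusted p = 0.0669). DESeq2 called this change (adjusted p = 0.0464, with 11.7% of all genes lower), and so did the fit without the third wild-type library (adjusted p = 0.0439). In sclera with choroid the levels were 254, 313 and 262 against 345, 501 and 420 TPM, higher in every library (log2 0.45, SE 0.15, adjusted p = 0.13).

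In RPE the mutant libraries spread widely, with 810, 1008 and 377 TPM against 682, 845 and 732 in wild type. The lowest was the library numbered 21. It held 2915 TPM of 12 corneal and surface epithelium genes, against 21902 and 7440 in the mutant libraries numbered 12 and 13 and 9419 to 10356 in wild type. Its sums of RPE markers (11090 against 7157 and 7083 TPM) and rod genes (4978 against 1590 and 2522) were the highest of the mutant group. The part of these lists in its CLU level was not tested. The CLU change in RPE was log2 -0.24 (SE 0.36, adjusted p = 0.792), and 0.09 without the library numbered 21. Whole eyes overlapped, at 133 to 229 and 141 to 215 TPM.

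Whether the mutant effect differed between dissected tissues was tested directly in the fit of 24 libraries. None of the 6 members was called in any of the 3 differences, in which 1.92% (RPE minus retina), 2.44% (sclera with choroid minus retina) and 0.683% (sclera with choroid minus RPE) of all genes were called. DESeq2 called 0 in each as well, and 1, 1 and 2 members had an unadjusted p under 0.05. The effect on dab2 in RPE minus that in retina was log2 0.27 (SE 0.21, edgeR adjusted p = 0.584), so the call in retina and its absence in RPE do not show a difference. For DAB2 that difference was 0.01 (SE 0.21), and the effect in sclera with choroid was lower than in retina by log2 -0.50 (SE 0.21, adjusted p = 0.219) and than in RPE by -0.50 (SE 0.20, adjusted p = 0.32). For CLU, sclera with choroid minus retina came to 0.73 (SE 0.43, adjusted p = 0.404).

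Transcripts of each member were identified as the unique set whose counts and TPM add up to the gene's in all 36 libraries, which gave 4 transcripts for dab2, 3 each for DAB2, ANKRA2 and CLU, 2 for ldlrap1a and 1 for LRPAP1. Their levels are estimates that share reads and are given without a test. The share of all transcripts whose groups separate was not counted. For DAB2, ENSDART00000166152 made up 92.1% of the level in wild-type RPE and 99.5% in mutant RPE. ENSDART00000147252 was at 3.69, 5.35 and 1.95 TPM in wild-type RPE and listed at 0 in all 3 mutant RPE libraries. In retina it made up 29.97% of DAB2 in wild type, and it was at 0 in 2 of 3 mutant libraries and at 2.47 TPM in the other. In whole eyes it overlapped, at 0 to 0.82 TPM in wild type and 0.46 to 0.81 in mutants. In sclera with choroid it was at 2.64 to 3.49 TPM in wild type and 1.65 to 2.48 in mutants.

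The transcripts of dab2 differed between tissues. ENSDART00000017956 made up 81.2% of dab2 in wild-type RPE, whereas ENSDART00000047670 led in wild-type whole eyes (67.4%) and retina (52.0%). The latter kept its share in mutant retina (52.0%), where its level was 6.74 to 9.93 TPM against 8.86 to 13.9 in wild type. For ldlrap1a, ENSDART00000164432 made up 16.0 to 18.2% in wild-type RPE and 19.5 to 32.0% in mutant RPE.

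One CLU transcript had lower estimates in mutant retina but not in mutant whole eyes. ENSDART00000153114 was at 72.0, 45.6 and 46.6 TPM in wild-type retina and at 27.4, 19.8 and 0 in mutant retina, with no overlap. How many of all transcripts separate in this way was not counted. The mean share of ENSDART00000127173 in CLU went from 74.0% to 84.3% in the same libraries. Whether shared reads moved between these transcripts was not tested. In whole eyes ENSDART00000153114 was at 23.7 to 27.4 TPM in wild type and at 20.4 to 34.2 in mutants. It was listed at 0 in all 3 wild-type RPE libraries, although CLU as a whole was most abundant there, and at 0, 3.30 and 0 TPM in mutant RPE. In the larval controls of the bmp4 line it made up 18.2 to 22.6% of CLU.

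No member was called in larval eyes of either transgenic line. The fits given here had no block on the replicate number. With that block again no member was called, while more of all genes were called in the bmp4 line, as given below. In the bmp4 line 0 of 6 were called, where 0.105% of all genes were, and the log2 changes ran from -0.28 for dab2 to 0.04 for LRPAP1 (edgeR adjusted p = 0.999 for each, none at an unadjusted p under 0.05, and 0 by DESeq2). In the shh line 0 of 6 were called and 0% of all genes (113 genes had an unadjusted p under 0.05, and DESeq2 called 2), with changes from -0.21 for DAB2 to 0.36 for ANKRA2 (adjusted p 0.9 to 0.981) and again 0 members by DESeq2, at an unadjusted p under 0.05 or, by edgeR, without any single library.

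CLU levels in larval eyes varied with the number in the label. In the bmp4 line, libraries numbered 11, 12 and 13 held 1012, 841 and 370 TPM in the controls and 1069, 781 and 392 in the transgenic larvae, so same-numbered libraries lay close and the groups overlapped. In the shh line the controls held 817, 228 and 644 TPM and the transgenic larvae 528, 236 and 418. The 2 SE interval of the bmp4 effect on CLU ran from log2 -0.86 to 0.70 and that of the shh effect from -1.21 to 1.31. These intervals include the spread between pairs, and with a block on the replicate number the effects were -0.08 (SE 0.05, edgeR adjusted p = 0.437) and 0.00 (SE 0.28, adjusted p = 0.995).

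**Figure D4:**
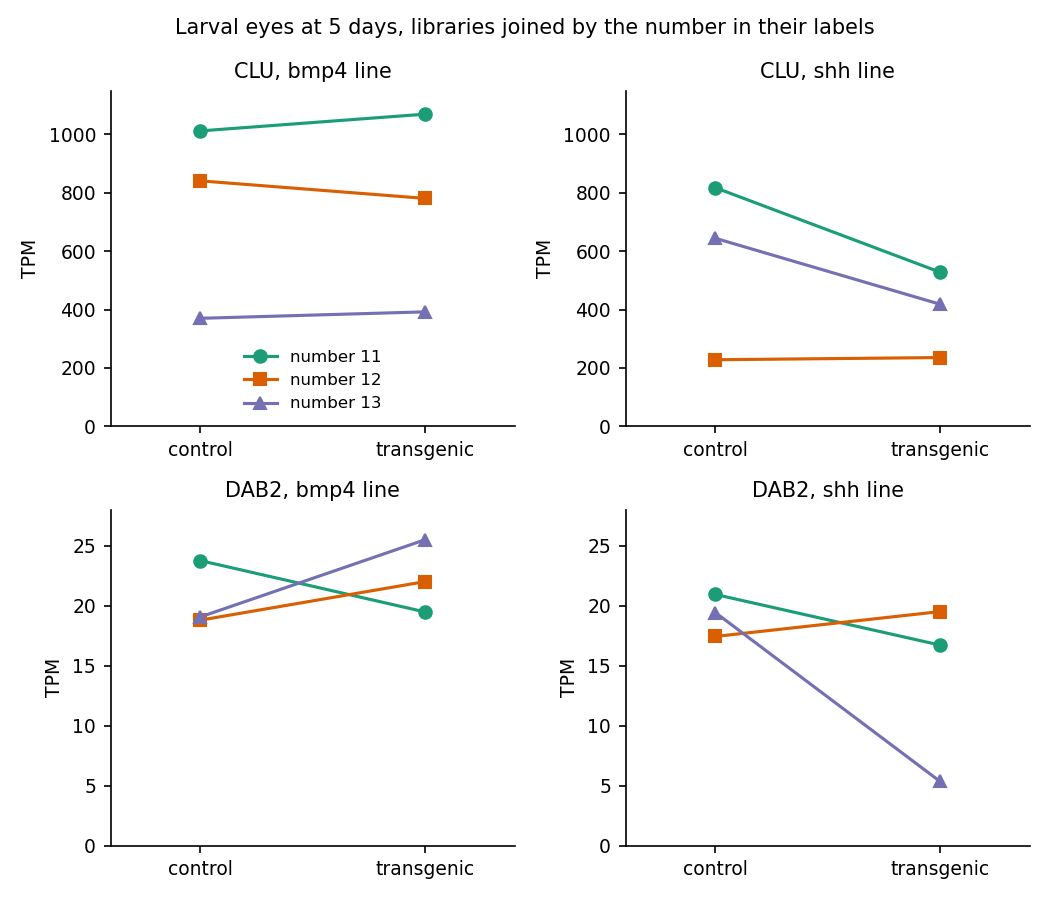
TPM of CLU and DAB2 in larval eyes at 5 days, with lines joining control and transgenic libraries of the same number. CLU in the bmp4 line falls from about 1012 to 370 TPM across controls and from 1069 to 392 across transgenic libraries in the same order of numbers, and DAB2 in the shh line drops to 5.36 TPM in the transgenic library numbered 13.

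DAB2 was at 23.8, 18.8 and 19.1 TPM in the bmp4 controls and at 19.5, 22.0 and 25.5 in the transgenic larvae. In the shh line it was at 20.9, 17.4 and 19.4 TPM in controls and at 16.7, 19.5 and 5.36 in transgenic larvae, the last being the library that stands apart. On the TPM scale that library was also lowest in its group for dab2 (2.96 TPM), ldlrap1a (7.82), LRPAP1 (23.9) and ANKRA2 (22.7). In counts, not scaled for total counts, it was instead the highest of its group for ldlrap1a (246), LRPAP1 (1064) and ANKRA2 (744). The median of all genes in the shh comparison lay at log2 -0.27 on the TPM scale. For ldlrap1a, LRPAP1, ANKRA2 and CLU the shh effect was positive in counts and negative on TPM, so no direction is given. In larval eyes DAB2 made up 87.5% of both copies in the bmp4 controls and 77.2% in the shh controls, above wild-type whole eyes of 1 month, but these tables were deposited separately and the fish differed in age.

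The genes most like each member were ranked by Pearson's r of log2(TPM + 1) over the 24 libraries of 1 month among 19375 genes, as a description of libraries that share tissue and genotype. Closest to dab2 were TTL (r = 0.984), si:dkey-63d15.12, sec14l8, PLCB2 and SGSM2. Those of DAB2 were klhl6 (0.984), PIK3CG, GPR17 and tmem176l.1, and those of ldlrap1a were STARD8 (0.992), SERPINH1, EDNRA, ftr82 and ephb4b. LRPAP1 ran with TXNDC9 (0.958), CAB39L, SLC31A1, mtdha and PRAF2, ANKRA2 with WDR83OS (0.991), SKP1, RNF7, CREBZF and znf280d, and CLU with NCK2 (0.943), ECE2, siae, stom and TRIP10. Among the members, DAB2 and ldlrap1a had r = 0.958, DAB2 and CLU 0.819, dab2 and ANKRA2 0.829, and dab2 and ldlrap1a -0.815.

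Other genes of the pathway came from lists of receptors, phosphotyrosine-binding adaptors, tail partners, clathrin coat, endosome sorting, chaperones and ligands, matched by symbol. In mutant retina 13 of 171 tested rose and 20 fell, against 8.13% and 11.3% of all genes, with a median log2 change of -0.03 (-0.01 over all genes). Among 16 other phosphotyrosine-binding adaptors 5 fell and 0 rose, including NUMB (log2 -0.68, SE 0.14, edgeR adjusted p = 0.0121), an endocytic adaptor that antagonizes Notch. Of 20 chaperones of the endoplasmic reticulum 6 rose and 1 fell, and of 35 clathrin coat and AP2 genes 2 rose and 6 fell, with BIN1, a membrane-bending protein, at -0.71. Counts of the other lists are not given here. No list was tested against all genes, so these counts do not show a shift of a list. The complement regulators serping1 and cfh were also called higher, but both were near 0 in wild-type retina (0.04 to 0.25 and 0 to 0.12 TPM, against 0.55 to 1.44 and 0.42 to 0.88 in mutants), so no fold is given.

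Whole eyes had 0 of 176 such genes called (0.934% of all genes) and RPE 1 of 172 (1.37%), apoa1b, an apolipoprotein (log2 -3.46, SE 0.54, edgeR adjusted p = 0.046). In RPE the red blood cell genes summed to 15143 to 19014 TPM in wild-type libraries and 2502 to 4470 in the mutant ones, and their part in the fall of apoa1b was not tested. In sclera with choroid, where 6.64% of all genes were called, 3 of 162 rose, among them the endosomal EHD3 (0.97), and 2 fell, apoeb (-0.92) and NUMB (-0.90, adjusted p = 0.0143). In larvae, bmp4 gave BMP4 itself and the chaperone PDIA3 (0.90, adjusted p = 0.046), and shha gave 0 of 172.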

How the data were processed

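RNA was sequenced from 36 eye samples in 12 groups of 3, grouped by genotype, tissue and age in the labels. The authors deposited expected counts and TPM per gene and per transcript for the 1-month set and for each larval line. The submitters' processing notes name GRCz10 as the build and list HISAT and Bowtie2. The counter, annotation release, tool versions and strand handling are not given in the sources. Deposited FPKM values were not used. After rounding, the deposited expected counts entered edgeR 4.0.16 under R 4.3.3 (filterByExpr, TMM, robust quasi-likelihood F test, two-sided), with Benjamini-Hochberg adjustment over all genes tested and calls at an adjusted p under 0.05. Standard errors came from the F statistic. Each genotype or transgene comparison used its own 6 libraries, wild-type tissues were fitted in 9 and tissue differences of the lrp2 effect in 24. The fits were tested on simulated counts. Alternatives were RLE scaling, DESeq2 1.42.0, no count filter, limma 3.58.1 on log2(TPM + 1) and log2(TPM + 0.1), 1 library left out, a fit of 24 libraries and a block on the replicate number. Transcripts were assigned to genes by sums of counts and TPM within 0.005 per term. All 6 members were named in every comparison, with up to 5 called pathway genes per direction and the 5 genes most like each member, 1 of which is not reported here. The rule for the members uses no measured value, but members and lists were chosen with earlier results of these data known. Same-numbered larval libraries deviated together (r 0.447, 0.474 and 0.585 in the bmp4 set, 0.252, 0.376 and 0.247 in the shh set). The main larval fits did not use this pairing, which entered only in the alternative with a block on the replicate number. All replicates differed from each other by more than counting noise. At 1 month the genotypes shared only a number. Sequences were not used here.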

Additional observations from a re-analysis of the deposited data

Results flagged for a closer look

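CLU, the clusterin gene, drew a closer look because every mutant library of retina lay below every wild-type library while every mutant library of sclera with choroid lay above, as for 15.9% and 26.5% of all genes. The lrp2 effect was log2 -0.30 in retina and 0.45 in sclera with choroid, and neither was called by edgeR (adjusted p = 0.0669 and 0.13). The difference between these effects, tested in the fit of 24 libraries, was 0.73 (SE 0.43, adjusted p = 0.404). In the same libraries the macrophage and microglia sum went from 150.2 to 259.4 TPM up to 335.1 to 596.1 in sclera with choroid and overlapped in retina. Gene by gene, the median change of the macrophage and microglia markers in sclera with choroid was negative in counts, as given above. Melanosome, iridophore and lens sums were higher without overlap in mutant sclera with choroid too. In mutant retina, rod, inner neuron and Müller glia sums were lower and the endothelial sum was higher, as given above. The part of any of these lists in the CLU levels was not tested.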

How the results depend on the processing

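The number of members called changed as follows. In whole eyes it was 1 by edgeR, 2 by DESeq2 and in the fit of 24 libraries, 0 by limma with either pseudocount, and 0 to 1 without single libraries. In RPE it was 0, and 1 by DESeq2 and in the fit of 24 libraries. In retina it was 2, 3 by DESeq2 and 1 by limma with either pseudocount. Over single genes and settings, 892 values kept their direction and their side of the threshold, 13 lost and 8 gained a call, and 83 changed sign. Sign changes under other settings, for values main first, were LRPAP1 in sclera with choroid (-0.12 against 0.051 and 0.054 by limma), CLU in wild-type sclera with choroid over retina (0.64 against -0.046), and, for the lrp2 effect in RPE minus retina, ldlrap1a (0.159 and 0.089 by limma) and, with the replicate block, DAB2 (-0.069) and LRPAP1 (-0.033). For sclera with choroid minus retina, ANKRA2 went from -0.002 to 0.033 with RLE, 0.029 with DESeq2, 0.083 unfiltered, and 0.15 and 0.167 by limma, and for sclera with choroid minus RPE, dab2 was 0.031 unfiltered. Under limma the bmp4 effect was 0.115 and 0.119 for DAB2 and 0.019 for CLU, and the shh effect was -0.14 and -0.153 for ldlrap1a, -0.125 and -0.129 for LRPAP1, -0.068 and -0.07 for ANKRA2, and -0.401 and -0.402 for CLU. Without single libraries, the values that crossed 0 ranged from -0.081 to 0.114 (ANKRA2) and -0.451 to 0.001 (CLU) in whole eyes, -0.056 to 0.181 (LRPAP1) and -0.537 to 0.085 (CLU) in RPE, -0.052 to 0.07 (LRPAP1) in retina, and -0.224 to 0.014 (LRPAP1) in sclera with choroid. For RPE minus retina they ranged from -0.181 to 0.187 (DAB2), -0.28 to 0.178 (ldlrap1a), -0.037 to 0.194 (LRPAP1) and -0.239 to 0.375 (CLU), for sclera with choroid minus retina from -0.232 to 0.05 (LRPAP1) and -0.05 to 0.149 (ANKRA2), and for sclera with choroid minus RPE from -0.244 to 0.182 (dab2) and -0.348 to 0.01 (LRPAP1). In larvae they ranged from -0.215 to 0.074 (DAB2), -0.209 to 0.027 (ldlrap1a), -0.006 to 0.079 (LRPAP1) and -0.409 to 0.216 (CLU) for bmp4, and from -0.17 to 0.075 (dab2), -0.035 to 0.405 (ldlrap1a), -0.008 to 0.53 (ANKRA2) and -0.511 to 0.434 (CLU) for shh. The cause of these sign changes was not tested. The replicate block changed no call of a member (bmp4 0, shh 0), while for all genes it moved the bmp4 count from 22 to 609, whole eyes from 200 to 409, RPE from 289 to 0 and sclera with choroid from 1404 to 368. DESeq2 called 1034, 1819 and 3020 genes in whole eyes, RPE and sclera with choroid, 1147, 1430 and 629 for the tissue differences, 105 for bmp4 and 2 for shh, against 459, 583, 163, 22 and 0 by edgeR. The fit of 24 libraries called 461 genes in whole eyes, 1994 in RPE, 1745 in retina and 2250 in sclera with choroid, and limma called 465 for sclera with choroid minus RPE and 14 and 11 for bmp4. On TPM the median of all genes moved to 0.15 in mutant RPE, 0.14 in mutant sclera with choroid and -0.18, -0.43 and -0.21 between wild-type tissues, and calls higher and lower went from 121 and 168 to 246 and 169 in RPE and from 595 and 809 to 1213 and 615 in sclera with choroid. Between wild-type tissues they went from 8169 and 7568 to 6857 and 9266, from 8629 and 8115 to 6880 and 11090, and from 5527 and 5001 to 4358 and 7537. Low counts limit ldlrap1a in retina.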
